A study of Mus musculus with 10 samples.

Results

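The 39 genes described here cover the burning of fatty acids and its control: the acyl-CoA synthetases that activate fatty acids, the carnitine shuttle that carries them into mitochondria, the enzymes of mitochondrial and peroxisomal β-oxidation, the electron carriers that take up the electrons, the PPAR receptors with a coactivator, and 3 fatty acid-binding proteins. They were chosen by symbol, and all 39 were found among the 25232 genes of the deposited table. RNA was sequenced from the spinal cord of female C57BL/6 mice at 90 days of age, 5 of them WT and 5 carrying the SOD1 G93A transgene, which is a mutated human gene inserted at a high copy number in a widely used model of amyotrophic lateral sclerosis (ALS). No region of the cord is given in the labels, and the methods speak of its lumbar part. The only level in the deposited table is the authors' base mean, which is the mean over all 10 libraries of the gene counts divided by size factors. It pools both genotypes, so the values below are levels in the pooled tissue, without a spread between mice and without a comparison of *SOD1* G93A with WT mice.

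In β-oxidation, a fatty acid bound to coenzyme A is shortened from its carboxyl end in repeated rounds of dehydrogenation, hydration, a further dehydrogenation and thiolysis, and each round releases acetyl-CoA. Medium- and long-chain fatty acids are handled in mitochondria, and very long or branched chains start in peroxisomes. In the nervous system the pathway is known mainly from astrocytes, while neurons rely on glucose and lactate. The PPARs are nuclear receptors that bind fatty acids and switch on genes of their transport and oxidation in tissues such as liver, muscle and fat.

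Summed over every gene, the authors' base means came to 22158933, and 4259 genes were listed at 0. The tissue was checked against markers of its cell types. All 12 markers of neurons, astrocytes and oligodendrocytes had high base means in the authors' table, from 1944 for *Aldh1l1* to 319615 for *Mbp*. The 4 motor neuron markers ranged from 37.3 for *Mnx1* and 45.6 for *Isl1* to 735 for *Chat* and 2316 for *Slc5a7*. The 4 skeletal muscle markers lay between 89.1 and 251, the 3 hepatocyte markers between 22.9 and 46.8, and the 4 adipocyte markers between 0.290 and 2.09. The part of RNA of muscle or liver in the levels of the members was not tested.

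Most of the members were well expressed. Of the 39, 35 had a base mean above 247, the median of the 20973 genes with a base mean above 0, and 18 had a base mean over 1000. Their own median was 873 in the authors' table, at percentile 72.4 of the genes above 0. The highest value was 8154 for *Acsbg1* and the lowest 3.81 for *Cpt1b*. The 4 members under the median of all genes were *Ppara* (142), *Ehhadh* (121), *Pparg* (24.1) and *Cpt1b*. Together the 39 genes made up 0.264% of all normalized counts, and the 3 highest members, all of them acyl-CoA synthetases, made up 35.3% of the members' sum.

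**Figure D1:**
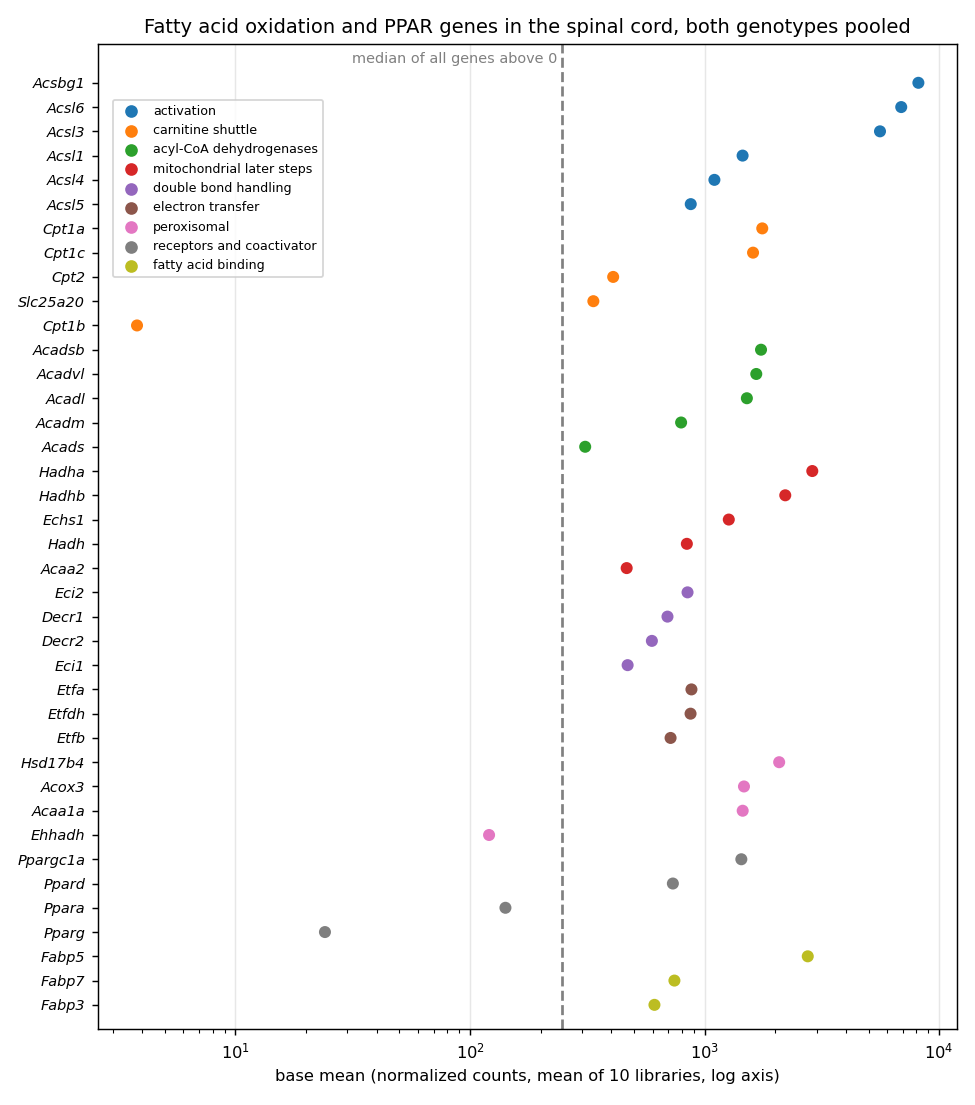
The authors' base mean (normalized counts averaged over the 10 libraries of both genotypes, log axis) of each of the 39 members, coloured by role, with the median of all genes above 0 as a dashed line. The acyl-CoA synthetases *Acsbg1*, *Acsl6* and *Acsl3* stand highest, and only *Cpt1b*, *Pparg*, *Ehhadh* and *Ppara* lie left of the line at 247.

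**Figure D2:**
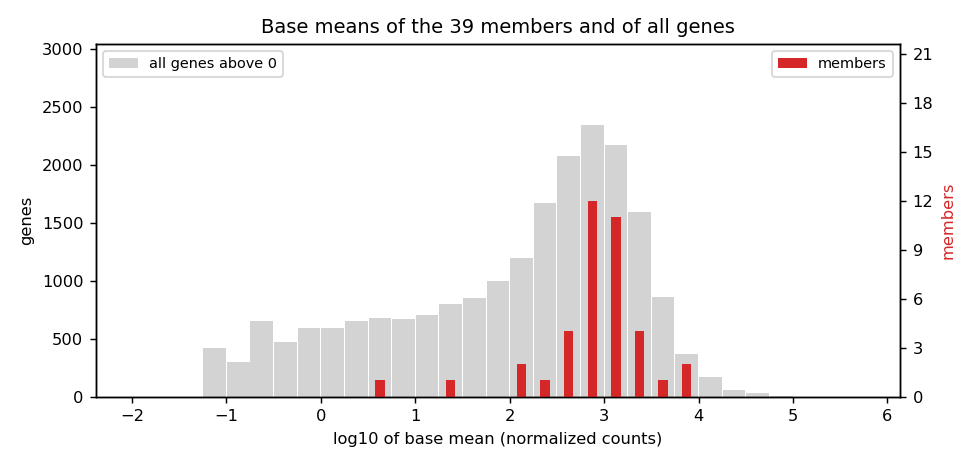
Distribution of the log10 base mean over all genes above 0 (grey, left axis) and over the members (red, right axis), in bins of 0.25. The bins from 2.75 to 3.25 hold 23 of the 39 members (12 and 11), and 2 members lie below 1.5.

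A base mean grows with the length of the transcript, so the base means, their sums and their percentiles describe shares of the counted reads and not which gene has more transcripts. For that, genes were compared per length: the base mean per kilobase, scaled so that all genes with a length sum to 1000000. The length was the union of the exons of a gene, the longest transcript or the coding length, all from GENCODE M21 on GRCm38, and one gene is said to exceed another only where this held with all 3. Places and medians that rest on a single length are given with its name. The longest transcript was taken from models of any type, and for some members it has few exons. It has 1 exon for *Slc25a20* and *Ppard*, 2 for *Eci2* and *Fabp5*, and 3 for *Hadh*, *Hadhb*, *Echs1*, *Etfdh* and *Fabp7*. Such models may hold intron sequence, which was not tested, and they also enter the union of exons. The union and the longest transcript are therefore not independent lengths. Of the 69 pairs of members that share a role, 48 kept their order. With the union of exons, the median level per length was 43.6 for the members and 12.5 for all genes above 0.

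Several results below turn on where a gene starts or which genes lie beside it, so 5 promoter windows are shown, each from 250 bases before to 50 bases after a start, from RefSeq on GRCm38.p6. The first pair belongs to *Hadha* (chr5:30154931-30155230, minus strand) and *Hadhb* (chr5:30155003-30155302, plus strand), whose starts face each other. Capitals mark the 228 bases that both windows share, read from opposite strands.
Hadha: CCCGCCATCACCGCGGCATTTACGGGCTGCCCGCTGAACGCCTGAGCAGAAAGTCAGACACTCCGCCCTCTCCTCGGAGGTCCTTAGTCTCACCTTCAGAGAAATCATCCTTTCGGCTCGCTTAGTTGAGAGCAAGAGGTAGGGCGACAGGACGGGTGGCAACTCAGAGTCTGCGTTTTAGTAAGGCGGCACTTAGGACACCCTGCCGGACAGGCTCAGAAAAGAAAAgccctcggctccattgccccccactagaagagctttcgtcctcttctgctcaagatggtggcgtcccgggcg
Hadhb: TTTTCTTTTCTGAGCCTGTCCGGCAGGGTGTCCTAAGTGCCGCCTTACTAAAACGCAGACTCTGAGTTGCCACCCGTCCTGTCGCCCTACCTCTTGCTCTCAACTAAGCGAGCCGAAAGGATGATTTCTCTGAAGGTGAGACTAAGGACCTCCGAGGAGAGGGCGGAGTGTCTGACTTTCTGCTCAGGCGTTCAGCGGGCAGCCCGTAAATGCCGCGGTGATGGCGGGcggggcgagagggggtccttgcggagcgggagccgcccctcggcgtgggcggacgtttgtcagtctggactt
The next windows belong to the members with the highest and the next highest level per length with the union of exons, *Acsbg1* (chr9:54661836-54662135, minus strand) and *Acsl3* (chr1:78657575-78657874, plus strand). Capitals mark CpG dinucleotides, of which *Acsbg1* has 2 and *Acsl3* has 33.
Acsbg1: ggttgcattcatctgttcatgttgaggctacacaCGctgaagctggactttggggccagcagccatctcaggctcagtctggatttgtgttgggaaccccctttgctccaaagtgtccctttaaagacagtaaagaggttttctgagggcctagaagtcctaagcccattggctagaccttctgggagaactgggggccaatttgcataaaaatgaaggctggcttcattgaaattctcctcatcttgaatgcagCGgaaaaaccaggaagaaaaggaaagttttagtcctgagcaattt
Acsl3: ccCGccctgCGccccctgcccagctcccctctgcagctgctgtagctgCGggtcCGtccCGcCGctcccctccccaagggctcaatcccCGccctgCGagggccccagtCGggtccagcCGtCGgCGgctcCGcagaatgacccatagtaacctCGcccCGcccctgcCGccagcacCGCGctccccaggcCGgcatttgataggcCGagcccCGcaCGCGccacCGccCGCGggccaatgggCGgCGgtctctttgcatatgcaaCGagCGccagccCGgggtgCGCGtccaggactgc
The last is 1 of the 3 windows of *Acsl6* (chr11:54303574-54303873, plus strand), in which capitals mark the letters of the ERR element, TCAAGGTCA, on the other strand.
Acsl6: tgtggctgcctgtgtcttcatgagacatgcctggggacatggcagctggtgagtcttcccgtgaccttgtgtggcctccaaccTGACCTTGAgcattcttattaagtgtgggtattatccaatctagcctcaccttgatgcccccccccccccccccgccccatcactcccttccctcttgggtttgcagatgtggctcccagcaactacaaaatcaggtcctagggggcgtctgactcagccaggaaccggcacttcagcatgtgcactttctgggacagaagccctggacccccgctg

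Acyl-CoA synthetases join a fatty acid to coenzyme A, the step before it can be oxidised or built into membrane lipids. The 6 members of this role held 41.1% of the summed base means of all 39. *Acsbg1*, a synthetase for long and very long chains known from astrocytes, had the highest base mean of the list (8154) and was followed by *Acsl6* (6891), an enzyme of brain known for its preference for polyunsaturated fatty acids. *Acsl3*, which sits on the endoplasmic reticulum and lipid droplets, had a base mean of 5594. *Acsl1*, the main synthetase of liver and heart, reached 1452, *Acsl4*, which prefers arachidonic acid, 1101, and *Acsl5* 873. These 3 lay below the other 3 with every length. *Acsbg1* was above *Acsl3* by 1.46 to 2.00 times and above *Acsl6* by 1.19 to 3.26 times, depending on the length. *Acsl3* and *Acsl6* could not be ordered, since their ratio ran from 0.814 to 1.85. Within the 5 ACSL genes, *Acsl3* held 51.3% of the level per length with the union of exons and 35.0% with the coding length, and *Acsl6* held 27.8% and 43.0%. *Acsl4* is the only member on the X chromosome.

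The carnitine shuttle was uneven. CPT1 moves a long-chain acyl group from coenzyme A to carnitine at the outer mitochondrial membrane and is the step at which malonyl-CoA blocks the pathway. It has a liver form (*Cpt1a*), a muscle form (*Cpt1b*) and a neuronal form (*Cpt1c*), the last of which is found on the endoplasmic reticulum and has little transferase activity. In the authors' table *Cpt1a* had a base mean of 1761 and *Cpt1c* one of 1609. Per length the pair could not be ordered, with a ratio of *Cpt1c* to *Cpt1a* between 0.885 and 1.25. *Cpt1c* held 55.3% and *Cpt1a* 44.4% of the CPT1 level per length with the union of exons, and *Cpt1b* held 0.218%.

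*Cpt1b* lies on chromosome 15 from 89416405 to 89425863. In GENCODE, 81.4% of its exon bases also belong to *Gm44502*, a longer gene model on the same strand, and 75.6% of the 100-base windows of its transcripts occur in that model too. *Gm44502* was listed with a base mean of 0. *Chkb*, a choline kinase gene of which 50.7% of the exon bases lie in exons of other listed genes of the same strand, was listed at only 2.24. Among protein-coding genes with at least 75% of their exon bases in another listed gene of the same strand, 30 of 44 (68.2%) had a base mean under 10, against 28.2% of the other 20351 genes. The 44 genes were not matched to the others in any other trait, and the annotation used for the counting is not given. The base mean of *Cpt1b* is uncertain, and the part of the counting in its low value was not tested.

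The later steps of the shuttle were lower. *Cpt2*, the transferase of the inner membrane, had a base mean of 408, and *Slc25a20*, the carrier that exchanges acylcarnitine for carnitine, one of 336. Per length *Cpt1a* exceeded *Cpt2* by 1.35 to 3.68 times and *Slc25a20* by 2.04 to 3.34 times. *Cpt2* and *Slc25a20* could not be ordered with respect to each other.

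Acyl-CoA dehydrogenases open each round of mitochondrial β-oxidation, and they differ in the chain length they take. *Acadvl*, for very long chains, had a base mean of 1661 in the authors' table, *Acadl*, for long chains, 1514, *Acadm*, for medium chains, 794, and *Acads*, for short chains, 310. Per length the order was *Acadl*, *Acadvl*, *Acadm*, *Acads* with all 3 lengths, and *Acadl* exceeded *Acads* by 4.68 to 5.53 times. The step between *Acadl* and *Acadvl* was small, at 1.03 to 1.39 times. *Acadsb*, which works mainly in the breakdown of isoleucine, had a base mean of 1740, and its place per length depended on the length, since its longest transcript of 6081 bases has a coding part of 1395. In GENCODE, 42.9% of the exon bases of *Acadvl* overlap exons of *Dvl2* on the opposite strand. The strand setting of the authors' counting was not given in the sources used here, so reads of the overlap may have been lost or shared.

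**Figure D3:**
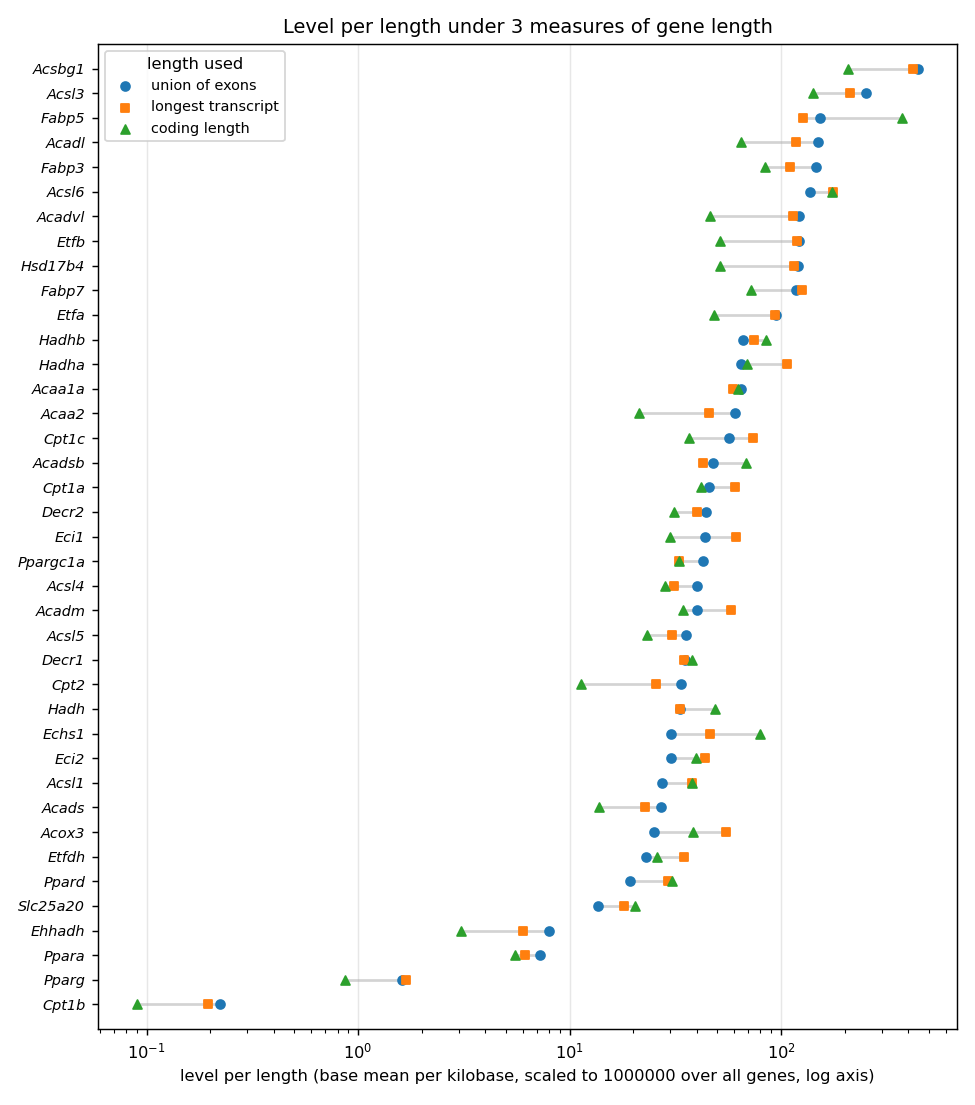
Level per length (base mean per kilobase, scaled to 1000000 over all genes, log axis) of the 39 members with 3 measures of length, joined by a grey line for each gene. *Acsbg1* tops the list with the union of exons and the longest transcript, *Fabp5* tops it with the coding length, and *Cpt1b* is lowest with all 3.

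After the dehydrogenases, the mitochondrial trifunctional protein carries out the remaining steps for long chains, and single enzymes do so for shorter ones. The trifunctional protein has an alpha chain, encoded by *Hadha*, and a beta chain, encoded by *Hadhb*. Their base means were 2878 and 2208 in the authors' table. Both chains exceeded *Hadh*, the short-chain hydroxyacyl-CoA dehydrogenase (840), by at least 1.41 times per length. They also exceeded *Acaa2*, the mitochondrial thiolase (465), by at least 1.07 times. *Echs1*, the short-chain enoyl-CoA hydratase, had a base mean of 1268, and its place depended on the length used, because its GENCODE models span 8286 exon bases and its coding part 870.

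*Hadha* and *Hadhb* were the only pair of members that lie side by side. In GENCODE they are 85 bases apart on chromosome 5, with *Hadha* from 30118304 to 30155162 and *Hadhb* from 30155248 to 30184593, and the next closest members, *Acsbg1* and *Etfa* on chromosome 9, are 792637 bases apart. Their RefSeq starts, at 30154980 and 30155253, are 273 bases apart, which gives the shared stretch of the windows printed above. The levels per length of the pair were near each other, with a ratio of *Hadhb* to *Hadha* between 0.702 and 1.23. Windows that overlap a window of another gene on the opposite strand were no rarity, as 10.8% of all 32851 windows and 6 of the 39 windows of members (15.4%) did so. A transcribed copy, *Gm13910*, holds 14.8% of the 100-base windows of *Hadhb* and was not listed by that symbol.

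Unsaturated fatty acids need extra enzymes that shift or remove a double bond. *Eci1* and *Eci2* are enoyl-CoA isomerases, the first mitochondrial and the second found in mitochondria and peroxisomes. *Decr1* and *Decr2* are the mitochondrial and the peroxisomal dienoyl-CoA reductase. The base means of these 4 genes lay close together in the authors' table, at 846 for *Eci2*, 695 for *Decr1*, 596 for *Decr2* and 470 for *Eci1*. None of the 6 pairs among them kept its order per length with all 3 lengths.

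The electron transfer flavoprotein takes electrons from the acyl-CoA dehydrogenases and passes them to its membrane oxidoreductase and on to ubiquinone. Its chains are encoded by *Etfa* and *Etfb*, and the oxidoreductase by *Etfdh*. Their base means were 879, 716 and 871. Per length *Etfb* and *Etfa* were near each other, with *Etfb* above *Etfa* by 1.06 to 1.28 times, and both were above *Etfdh*, by 1.99 to 5.30 and 1.87 to 4.13 times. In GENCODE, 53.0% of the exon bases of *Etfb* also belong to *Gm45233*, a model on the same strand that was not listed by that symbol. Of the 100-base windows of *Etfb*, 35.8% occur in that model too. The part of the counting in the level of *Etfb* was not tested.

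Among the peroxisomal members, *Hsd17b4* (2079), the D-bifunctional protein on chromosome 18 from 50128201 to 50196269, stood over *Ehhadh* (121), the L-bifunctional protein of the classical PPARα-driven pathway in liver. The proteins catalyse the same pair of steps with opposite stereochemistry. The difference was 15.1 to 19.2 times per length and held with all 3 lengths. *Acaa1a*, a peroxisomal thiolase, had a base mean of 1453, and *Acox3*, an oxidase of branched chains, one of 1472. *Acaa1a* exceeded *Acox3* by 1.07 to 2.58 times per length. *Acaa1b*, a near copy of *Acaa1a* that shares 7.21% of its 100-base windows, had a base mean of 38.3 in the authors' table.

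The 3 PPAR genes were ordered alike with all lengths. *Ppard*, the form found in nearly every tissue, had a base mean of 732, *Ppara*, the form of liver and muscle, 142, and *Pparg*, the form of fat and macrophages, 24.1. Per length *Ppard* exceeded *Ppara* by 2.64 to 5.50 times and *Pparg* by 12 to 34.9 times. *Ppard* held 68.4% of the PPAR level per length with the union of exons and 82.6% with the coding length, and *Pparg* held 5.72% and 2.37%. The adipocyte markers measured beside *Pparg* were near 0, with *Adipoq* at 2.09 and *Plin1* at 1.77. The 4 microglia markers ranged from 480 for *Tmem119* to 3041 for *Csf1r*. The part of either cell type in the level of *Pparg* was not tested. *Ppargc1a*, a coactivator of PPARs and of mitochondrial biogenesis, had a base mean of 1434 and exceeded *Ppara* by 5.35 to 5.95 times per length.

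**Figure D4:**
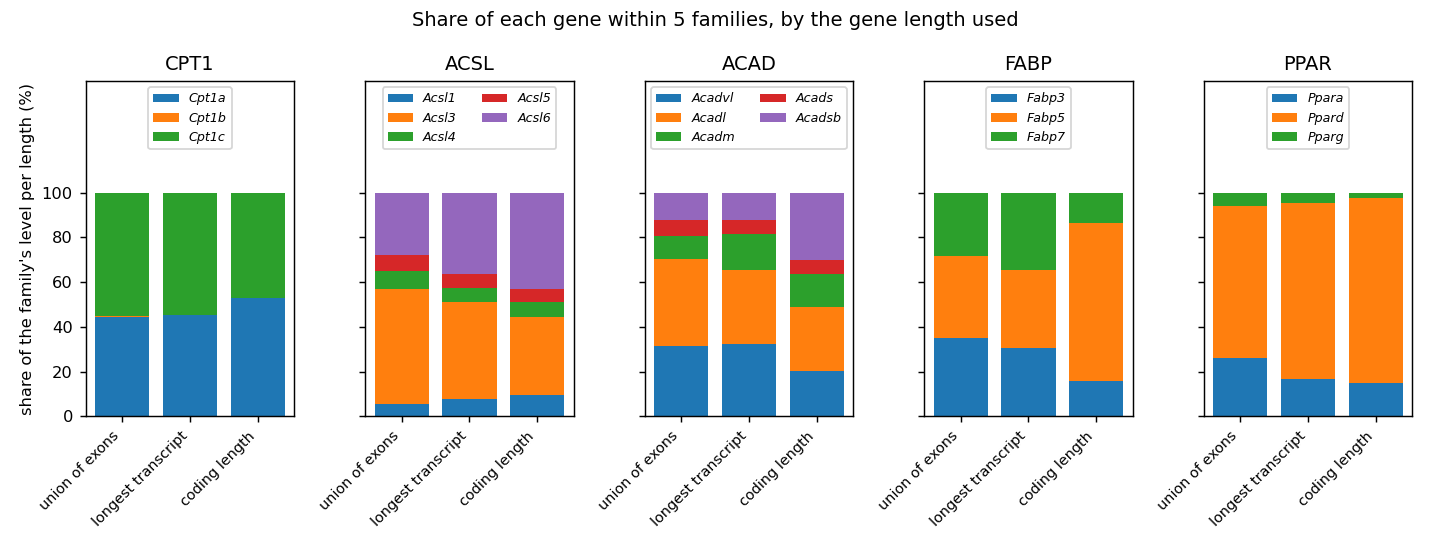
Share of each gene in the summed level per length (%) of its family, for the CPT1, ACSL, acyl-CoA dehydrogenase (ACAD), FABP and PPAR genes, each with 3 measures of length. *Ppard* leads its family with all 3, *Fabp5* is level with *Fabp7* with the longest transcript, and the lead changes with the length in the CPT1, ACSL and ACAD families.

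Fatty acid-binding proteins carry fatty acids through the cytosol. *Fabp5*, the epidermal form, had a base mean of 2753, *Fabp7*, the form of radial glia and astrocytes, 744, and *Fabp3*, the heart form, 611. Per length with the union of exons these short genes ranked high, at 152 for *Fabp5*, 147 for *Fabp3* and 117 for *Fabp7*, and *Fabp5*, *Fabp3* and *Fabp7* took places 3, 5 and 10 among the 39 members. With the longest transcript they were places 4, 10 and 5, and with the coding length 1, 6 and 8. The share of *Fabp5* in the 3 genes was 36.6% with the union of exons and 70.5% with the coding length. With the longest transcript it was 34.9%, and *Fabp7* held 34.7% and was practically level with it. The coding length of *Fabp5* is 405, against 3567 exon bases in a gene of 4060 bases. Its longest model has 3238 bases in 2 exons, so intron sequence may be part of these lengths, which was not tested. The longest model of *Fabp7* has 880 bases in 3 exons, and intron sequence in it was not tested either. *Fabp3* shares 21.7% of its 100-base windows with *Fabp3-ps1*, a pseudogene. *Fabp4*, the adipocyte form, which is no member, had a base mean of 8.86, and *Fabp1*, *Fabp2* and *Fabp6*, the forms of liver and gut, had 5.14, 0.291 and 0.210.

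A list of 49 further genes of the same pathways gave the setting. All 49 were listed, 43 had a base mean of at least 10, and 34 lay above the median of all genes above 0. Their median base mean was 619, against 873 for the members. Among the highest per length with the union of exons were *Oxct1* (355), the enzyme with which cells use ketone bodies, and *Slc27a4* (128), a fatty acid transporter. The lowest were *Acsbg2* (0.0939), *Fabp6* (0.0864) and *Fabp2* (0.0596). *Cd36*, a fatty acid receptor of muscle, fat and macrophages, had a base mean of 23.4.

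Most start windows of the members had more CpG dinucleotides than the median of all windows. RefSeq windows were found for 34 of the 39 members, 39 windows in all, and 3 members had several. *Acaa2*, *Cpt1b*, *Decr1*, *Fabp5* and *Hsd17b4* had none in the table used. The windows of the members had a median of 17 CpG dinucleotides, and all 32851 windows had a median of 7. All windows were taken without a limit to expressed or protein-coding genes, here and for the letters searched below. A comparison with such genes only was not made, so the difference is not shown to be particular to the members. Above that median lay 32 of the 39. Under 5 CpG dinucleotides were found in 4 windows of members, belonging to *Acsbg1*, *Acsl1*, *Acsl6* and *Pparg*, and in 38.0% of all windows. *Acsl1*, *Acsl6* and *Pparg* each have another start with 30, 36 and 44, whereas the low window of *Acsbg1*, printed above, is its only one. A high CpG number went with both high and low base means, as *Acsl3* (33, base mean 5594) and *Ppara* (30, base mean 142) show.

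**Figure D5:**
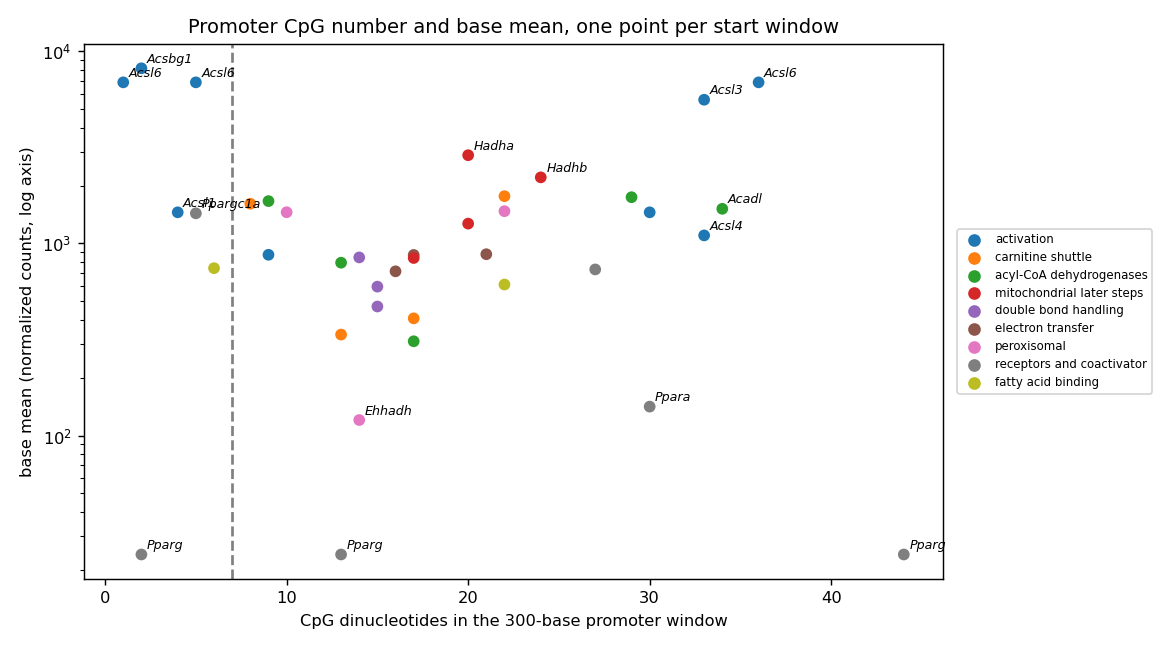
CpG dinucleotides in each 300-base RefSeq start window (x axis) against the authors' base mean of the gene (y axis, log), coloured by role, with the median of all windows, 7, as a dashed line. Genes with several starts appear once per window, such as *Pparg* at 2, 13 and 44 and *Acsl6* at 1, 5 and 36.

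The windows were searched on both strands for letters of nuclear receptor sites and of general promoter elements. The full element that PPARs bind was not searched. The hexamer AGGTCA, the core of the sites of many nuclear receptors, was found in 9 windows of 8 members (23.1%), namely *Acadm*, *Acadvl*, *Acsl6*, *Cpt1a*, *Cpt1c*, *Echs1*, *Fabp7* and *Pparg*, and in 16.3% of all windows. The ERR element, TCAAGGTCA, which contains the hexamer, was found in 1 window, that of *Acsl6* printed above, and in 0.423% of all. The element begins 167 bases before the start at 54303824. The CCAAT box (CCAAT) was found in 19 windows of 17 members, or 48.7%, against 37.4% of all windows, and the TATA box (TATAAA) in 1 window of *Pparg* and 13.6% of all. These are matches of letters in short windows and not evidence of binding.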

How the data were processed

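RNA of the spinal cord of 5 WT and 5 SOD1 G93A female mice was sequenced. According to the methods and the submitters' processing notes, the authors made stranded mRNA libraries, filtered the reads with Fastp, aligned them to mm10 with HISAT2 2.1.0, assigned the reads with a single alignment to genes with featureCounts 2.0.2 and compared the genotypes with DESeq2. The annotation and the strand setting are not given in the sources used here. The authors deposited 1 table. Its base mean, a signal of normalized counts pooled over all 10 libraries, was deposited by the authors and is the only column used. The other 5 numeric columns hold the authors' own comparison of the genotypes (log2 fold change, its standard error, Wald statistic, p-value and adjusted p-value) and were not used. No test was made, and depth per library, spread between mice and intervals are unknown.

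Symbols of 24312 genes (96.4%), all 39 members among them, matched exactly 1 gene of GENCODE M21 on GRCm38, the build mm10 denotes. Genes without a match held 1.33% of the normalized counts. Lengths came from GENCODE in place of RefSeq, whose exons were not used here. Percentiles are the share of genes above 0 with a lower base mean. Promoter windows came from RefSeq. Near copies were found by 100-base windows of GENCODE transcripts shared with another gene, in place of protein identity. The calculations of percentiles and of levels per length were tested on simulated data with a known length for each gene. The choice of length and the other steps were not tested in this way. Members, roles and lists were chosen with earlier results of these data known, as were the printed windows and motifs. All members are named, and of 49 other pathway genes the 3 highest, 1 of which is not reported here, and 3 lowest per length and *Acaa1b*; *Fabp1*, *Fabp4*, *Cd36*, *Acat1*, *Bdh1*, *Rxra*, *Rxrb*, *Rxrg* and overlapping genes were named after their values were seen. Alternatives were other backgrounds and lengths. Python 3.11.15, numpy 2.4.6, pandas 2.3.3 and matplotlib 3.10.9 were used.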

Additional observations from a re-analysis of the deposited data

How the results depend on the processing

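No paired analysis was possible because the deposited table holds no values of single libraries, so replicates could be neither left out nor blocked. Without known spread, a value was taken as moved when it changed by over 1.5 times. The number of members above the median of the background and their median percentile stayed within 1.5 times when the background was limited to genes of 10 or more, or to protein-coding genes (35 members above the median, then 30 and 33). With genes of 10 or more, the percentile moved for 3 members, *Pparg* (29.5 to 7.13), *Ppara* (43.4 to 25.5) and *Ehhadh* (41.8 to 23.4). The median base mean of the members was 876 without the member under 10. The length used mattered more. Of the 39 levels per length, 5 moved with the longest transcript and 21 with the coding length. Part of this is a shift of all genes, whose median changed by −0.20 and −0.43 on the log2 scale. Among the genes that led their family, *Fabp5* moved from 36.6% to 70.5% with the coding length. Without any length correction, the place of 18 of the 39 members in the order changed by over 1.5 times. The levels rest on the authors' counting of uniquely mapped reads, which limits genes that share sequence or exons with others.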

Other observations

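Genes of ketone body use were measured beside the members. *Oxct1*, which activates acetoacetate, and *Acat1*, the mitochondrial thiolase that follows it, had base means of 6667 and 1991 in the authors' table. *Bdh1*, which converts hydroxybutyrate and acetoacetate into each other, had 1281. Per length with the union of exons, the levels were 355 for *Oxct1*, 105 for *Acat1* and 65.0 for *Bdh1*. Of the partners of the PPARs, *Rxra* and *Rxrb* had levels per length of 62.2 and 62.6 and *Rxrg* one of 10.1.

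The globin genes *Hba-a1* and *Hbb-bs* were listed at 0, while *Alas2*, an enzyme of haem synthesis in red cell precursors, had a base mean of 137. Only reads with a single alignment were counted, and the part of the counting in the values of 0 was not tested. They are therefore no measure of globin RNA or blood in the tissue.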
